A study of Drosophila mojavensis with 95 samples.

Results

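Undesiccated virgin females from San Quintin, Baja California, were compared between the 2 cacti on which they had been reared. Of the 95 arrays in the study, 8 belong to this comparison: 4 of flies reared on medium made from organ pipe cactus and 4 of flies reared on medium made from agria cactus. They were chosen by their labels alone, as the San Quintin arrays at 0 h of desiccation, and every difference below is organ pipe minus agria. The study measured RNA of whole bodies of wild-type Drosophila mojavensis females on 1-colour arrays, for 4 populations, 2 rearing cacti and 0, 9 or 18 h of desiccation. Besides San Quintin, the populations were Punta Prieta, also in Baja California, Punta Onah and Organ Pipe National Monument. The labels place the latter pair in the Sonora desert. All groups were virgin, wild type and raised in bottle cultures in an incubator that cycled light and temperature. The labels give no age in days and no number of flies per sample.

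Drosophila mojavensis breeds in rotting columnar cacti of the Sonoran Desert region, where larvae and adults feed on the plant tissue together with its yeasts and bacteria. Agria is the main host in Baja California and organ pipe cactus is the main host in mainland Sonora, so organ pipe medium was not the customary host for flies of San Quintin. Cactus hosts differ in their alkaloids, triterpenes, sterols and sugars, and the response of flies to a host is commonly studied through detoxification, digestive and chemosensory genes. The comparison asks whether the cactus left a difference in the RNA of flies before any water stress.

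Each array gave 1 log2 level for each of 14528 transcripts, and the text calls a transcript higher or lower when limma's two-sided moderated test had a Benjamini-Hochberg adjusted p under 0.05 over all of them. The test compares means of the 24 groups and takes each transcript's spread from all 95 arrays, with 71 residual degrees of freedom. Errors are standard errors (SE) of that fit unless a standard deviation (SD) is named. Replicates are labelled as such, and nothing says whether they came from separate cultures, so p-values measure only the spread between these arrays. Slide and scan batches are not given in the labels. In a whole body, more cells of a type and more RNA per cell cannot be told apart. How far a dim transcript lay above background is unknown. Rows carry FlyBase transcript identifiers, and 0 of the 14528 could be paired with a gene, so transcripts are named by identifier, no gene group could be counted, and the sex and tissue in the labels could not be checked against marker genes.

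Before any single transcript is described, the 8 arrays themselves differed between cacti. The median level of an array was 10.37, 10.31, 10.38 and 10.34 in the 4 agria arrays, in replicate order, and 10.39, 10.40, 10.39 and 10.39 in the organ pipe arrays. The SD over the transcripts of an array was 1.98, 1.94, 1.97 and 1.93 on agria and 2.02, 2.00, 2.03 and 2.01 on organ pipe. In both measures every organ pipe array lay above every agria array. The medians differed by 0.0438, from 10.35 ± 0.0314 (SD, n = 4) to 10.39 ± 0.00388 (exact permutation test over 70 splits, two-sided p = 0.0286, the smallest p that 4 against 4 allows). The SDs differed by 0.0636, from 1.953 ± 0.0248 to 2.016 ± 0.0146 (exact permutation p = 0.0286). Among the 24 groups of the study, undesiccated San Quintin flies on organ pipe had the highest mean median and the highest mean SD, and their agria counterparts stood at ranks 5 and 11.

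Arrays of all 24 groups also varied along 1 shared axis, the first component of their deviations from the group means, which held 41.8% of the variance inside groups against 6.77% for the next component. An array's score on this axis followed its SD over transcripts (r = 0.966 over the 95 arrays, a description across arrays of many groups). At 0 h the agria arrays scored 17.7, -3.53, 19.4 and -2.53, and the organ pipe arrays 39.9, 27.9, 42.5 and 34.2. The groups did not overlap, and organ pipe ranked highest of the 24 groups. The mean scores were 7.76 ± 12.5 and 36.1 ± 6.48 (SD, n = 4), a difference of 28.4 (exact permutation p = 0.0286). The 3 array measures are related to each other, and their p-values adjusted over the 3 were also 0.0286.

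The agria arrays formed 2 pairs. Agria arrays 1 and 3 correlated with each other at 0.9952 over transcripts and arrays 2 and 4 at 0.9942, while the other 4 agria pairings ran from 0.9904 to 0.9925. Arrays 1 and 3 also lay nearer to the organ pipe arrays, with mean correlations to them of 0.9905 and 0.9924, against 0.9800 and 0.9790 for arrays 2 and 4. The organ pipe arrays correlated with each other at 0.9922 to 0.9947. In a principal component analysis of the 8 arrays, component 1 took 62.1% of the variance and placed agria arrays 2 and 4 at -27.4 and -28.8, agria arrays 1 and 3 at -7.29 and -2.78, and the organ pipe arrays between 7.89 and 24.7. Agria arrays 1 and 3 thus lay between the rest on this component. The part of these array differences in the results below was not tested, and counts are given with and without the arrays concerned.

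**Figure D1:**
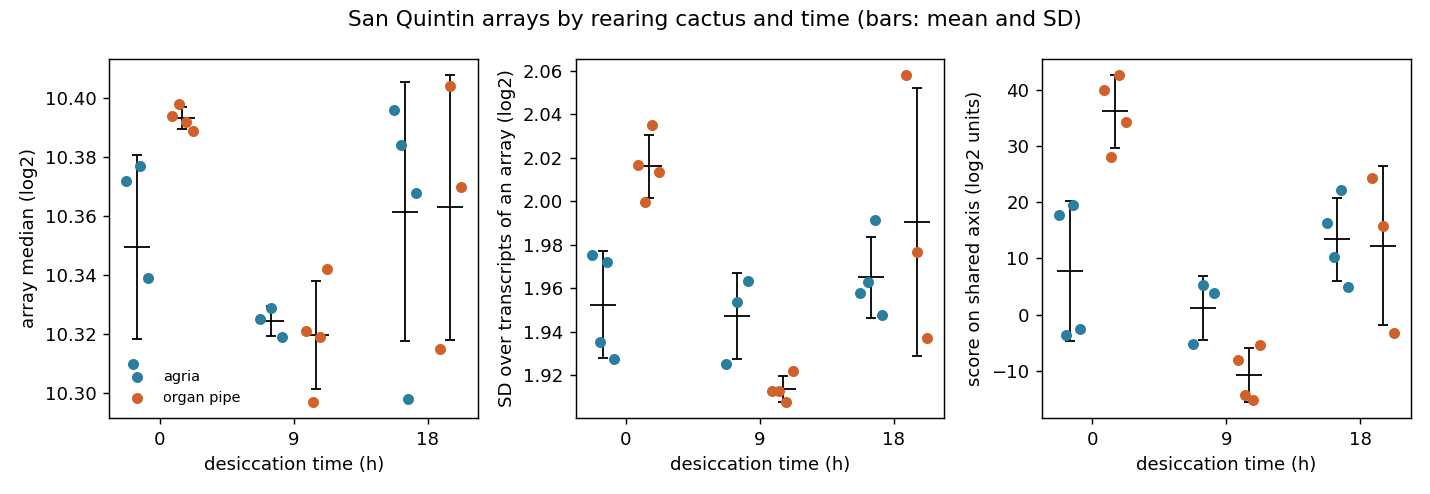
Array median, SD over transcripts and score on the shared axis (all in log2 units) for each of the 22 San Quintin arrays against hours of desiccation, with agria in blue and organ pipe in orange; points are arrays, and bars give the group mean and SD. At 0 h the 4 organ pipe arrays lie above all 4 agria arrays in each panel, and at 9 h all 4 organ pipe arrays lie below all 3 agria arrays in SD and axis score.

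After limma's adjustment, 40 of 14528 transcripts were higher in flies reared on organ pipe cactus (0.275%) and 0 were lower (0%). At an unadjusted p under 0.05 the test marked 2794 transcripts (19.2%), of which 1171 were higher and 1623 lower. Differences were mostly small, with a median absolute difference of 0.123 on the log2 scale. The median 95% confidence interval reached 0.281 to either side. Still, 750 transcripts (5.16%) differed at least 1.5-fold, 239 of them higher and 511 lower, and 30 differed at least 2-fold, 10 higher and 20 lower. Transcripts lower on organ pipe were therefore the more numerous among large differences and among unadjusted p-values, although none of them was called in this fit. Levels in the 4 organ pipe arrays all lay above those of the 4 agria arrays in 1327 transcripts (9.13%) and all below in 1772 (12.2%).

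FBtr0166098 had the largest difference among called transcripts. Its levels on agria at 0 h were 8.94, 8.88, 9.32 and 8.50, and on organ pipe 10.54, 10.52, 10.63 and 9.77. All 4 organ pipe arrays exceeded all 4 agria arrays, with organ pipe array 4 well below the other 3. The difference was 1.45 ± 0.296 (95% interval 0.86 to 2.04, 2.74-fold; limma adjusted p = 0.0107). It lost its call when either agria array 2 or 4 or organ pipe array 1 or 3 was left out, with adjusted p-values from 0.0541 to 0.125, while the difference stayed between 1.32 and 1.44. At 9 h the San Quintin levels were 9.89, 9.71 and 9.86 on agria and 9.97, 10.06, 8.39 and 9.76 on organ pipe, so the cacti overlapped. At 18 h they were 8.01, 8.28, 7.31 and 7.66 on agria and 7.33, 8.24 and 7.58 on organ pipe, again overlapping and below every level at 0 h.

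FBtr0168724 had the smallest adjusted p. Levels were 7.78, 7.45, 7.68 and 7.42 on agria and 8.68, 9.53, 9.19 and 8.02 on organ pipe at 0 h. No array overlapped between cacti, although organ pipe array 4 stood close to the highest agria array. The difference was 1.27 ± 0.170 (95% interval 0.94 to 1.61, 2.42-fold; limma adjusted p = 1.69e-06), and it kept its call without any single array. At 9 h levels were 7.75, 7.67 and 7.91 on agria and 7.42, 7.88, 7.53 and 7.63 on organ pipe. At 18 h they were 7.66, 7.77, 7.41 and 7.85 on agria and 7.78, 7.58 and 7.48 on organ pipe. The high levels of this transcript in San Quintin were thus those of organ pipe flies at 0 h, and every array at 9 and 18 h lay below the lowest of them.

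The largest differences in the other direction did not pass the test. FBtr0172091 had levels of 10.89, 11.67, 10.65 and 11.46 on agria and 9.98, 10.31, 9.69 and 10.07 on organ pipe. The groups did not overlap, and agria arrays 2 and 4 held the high agria levels. The difference was -1.16 ± 0.341 (95% interval -1.84 to -0.48; limma adjusted p = 0.108). FBtr0164953 had levels of 10.63, 11.52, 10.51 and 11.51 on agria and 9.72, 10.24, 9.64 and 10.03 on organ pipe, with the same arrays high and the same lack of overlap. Its difference was -1.14 ± 0.388 (95% interval -1.91 to -0.36; limma adjusted p = 0.152). Among all 14528 transcripts, FBtr0164953 had the lowest loading on the shared axis. With the axis score as a covariate, the differences of FBtr0172091 and FBtr0164953 were -0.426 and -0.295, while those of FBtr0166098 and FBtr0168724 were 1.19 and 1.24 and both were still called (adjusted p = 0.0474 and 8.02e-06).

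**Figure D2:**
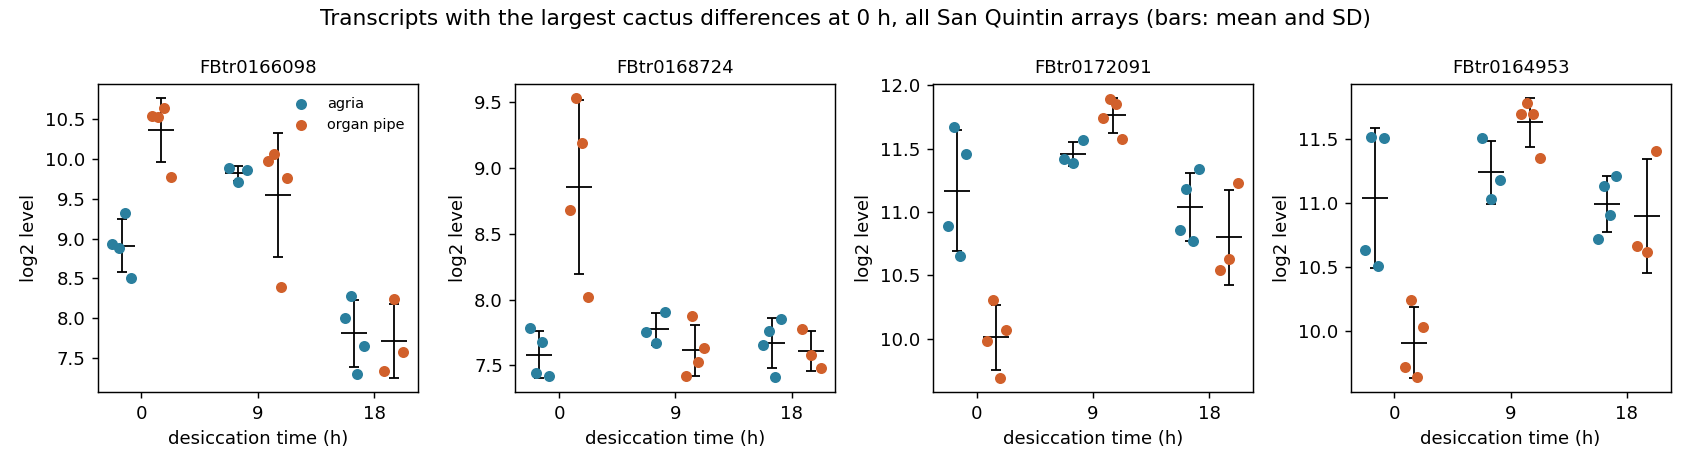
Log2 level of 4 transcripts in each San Quintin array against hours of desiccation, with agria in blue and organ pipe in orange; points are arrays, and bars give the group mean and SD. At 0 h the cacti do not overlap in any of the 4 transcripts, and at 9 and 18 h they overlap in FBtr0166098, FBtr0168724 and FBtr0164953.

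Across the 40 called transcripts, differences ran from 0.47 to 1.45 with a median of 0.72, and 5 reached 2-fold. In 34 of the 40 the cacti did not overlap, against 9.13% of all transcripts with every organ pipe array higher, but the test that chose the 40 used these arrays. The called transcripts were mostly dim: their mean levels ran from 6.93 to 12.3 with a median of 8.27, against 10.3 for all transcripts. Agria arrays 2 and 4 were the lowest pair of agria arrays in 24 of the 40, against 21.7% of all transcripts. In 26.9% of all transcripts they were the highest pair. Both arrays lay far from organ pipe and helped to choose the 40, so the count of 24 was partly built in. With the axis score as a covariate all 40 kept their direction, with a median difference of 0.54, and 13 of them were still called.

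The size and direction of the cactus difference changed with the level of a transcript, with transcripts ranked into 5 equal classes by their mean over all 95 arrays. In the dimmest class the median difference was -0.15 and 32.9% of transcripts were higher on organ pipe. In the next class the median was -0.11 and 43.5% were higher. From the middle class upward the medians were 0.07, 0.02 and 0.02, with 67.7%, 60.3% and 58.4% higher. Dim transcripts were on balance lower on organ pipe. The direction in the 2 brightest classes turned with the scaling: with each array centred on its median, the medians from the dimmest to the brightest class were -0.19, -0.15, 0.03, -0.02 and -0.03, and 35.3% of the brightest class were higher.

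A single median hides much of this pattern, since dim transcripts parted into both directions. In the second-dimmest class, levels 8.30 to 9.53, the quartiles of the difference were -0.43 and 0.24. There, 41.5% of transcripts were more than 0.25 lower, 24.4% more than 0.25 higher, and 34.1% within 0.25 of 0. In the brightest class 96.9% lay within 0.25. Non-overlapping groups followed the same classes, with 18.5% of the second-dimmest class entirely higher and 27.9% entirely lower, against 3.30% and 1.89% in the brightest. At 9 h, 87% of the second-dimmest class lay within 0.25 of 0, and at 18 h 81.2%, more than at 0 h. Of the 40 called transcripts, 20 were in the dimmest class, 16 in the second-dimmest, 2 in the middle class and 2 in the brightest.

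Each array showed the class pattern in its own levels. In the dimmest class the agria arrays had medians of 7.57, 7.67, 7.59 and 7.69, and the organ pipe arrays 7.49, 7.53, 7.43 and 7.47. In the middle class they were 10.37, 10.31, 10.38 and 10.34 on agria and 10.41, 10.40, 10.41 and 10.41 on organ pipe. Organ pipe arrays lay entirely below agria in the former and entirely above in the latter, and agria arrays 2 and 4 were the farthest from them in both. Across transcripts, the 0 h difference correlated with the loading on the shared axis at r = 0.844, and at 0.84 when the axis was computed from the 87 arrays outside this comparison (transcripts are not independent replicates).

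**Figure D3:**
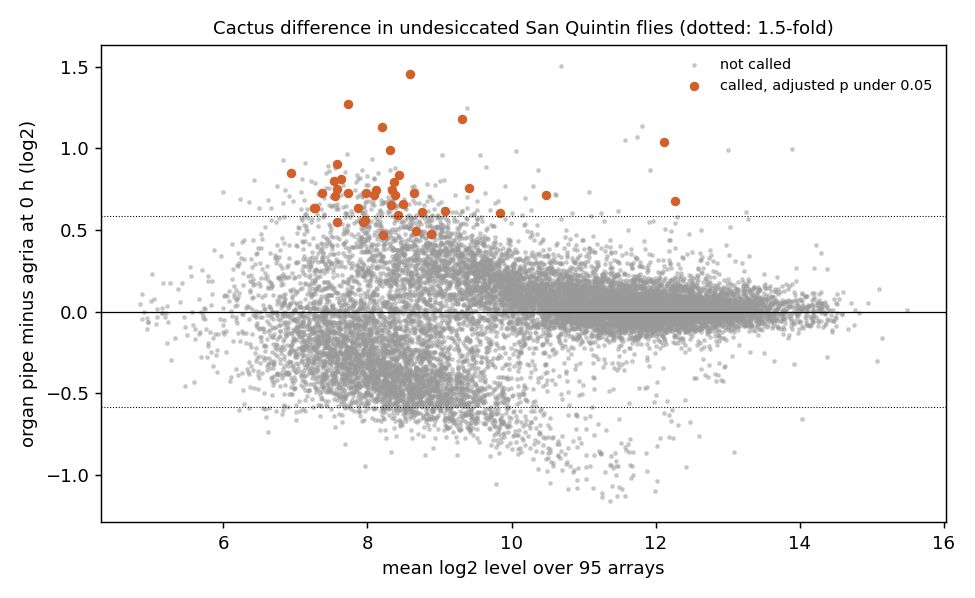
Organ pipe minus agria at 0 h (log2) against the mean log2 level over 95 arrays, 1 point per transcript; orange points are the 40 called transcripts, and dotted lines mark 1.5-fold. Below a level of about 10 the points part into a lower and an upper band, while above it most lie near 0 with a tail of transcripts down to -1.16.

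The count of called transcripts depended on which arrays set the spread. With the spread taken only from the 22 San Quintin arrays, a fit with 16 residual degrees of freedom, 2652 transcripts were called (18.3%), 1015 higher (6.99%) and 1637 lower (11.3%), and all 40 of the first fit were among them. The differences themselves are the same in both fits. The median residual SD of a transcript was 0.148 over San Quintin arrays and 0.201 over all arrays. The other populations had 0.187 (Punta Onah), 0.209 (Organ Pipe National Monument) and 0.214 (Punta Prieta). A smaller spread did not always give more calls. With the spread from the 31 arrays at 0 h, where the median residual SD was 0.173, 5 transcripts were called, 4 of them among the 40. In that fit FBtr0168724 was called (limma adjusted p = 0.0361) and FBtr0166098 was not (adjusted p = 0.0917). FBtr0172091 and FBtr0164953 were called lower in the San Quintin fit, with limma adjusted p-values of 0.00242 and 0.00373. FBtr0166098 and FBtr0168724 were called higher there too, at 0.00513 and 0.00216. With the axis score as a covariate in the San Quintin fit, the count was 0 by limma, with a lowest adjusted p of 0.247 and 811 transcripts at p under 0.05 before adjustment. There FBtr0166098 and FBtr0168724 still differed by 1.19 and 1.21 (adjusted p = 0.755 and 0.743), and FBtr0172091 and FBtr0164953 by -0.274 and -0.121 (adjusted p = 0.883 and 0.974).

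The counts of the fit of all arrays and of the San Quintin fit changed with the arrays left out. Without agria arrays 2 and 4, 1 transcript was called in the fit of all arrays and 3 in the San Quintin fit. Without organ pipe arrays 1 and 3, which had the highest axis scores, the counts were 1 and 9. Leaving out the other arrays of each cactus gave 48 and 3465 without agria arrays 1 and 3, and 69 and 2298 without organ pipe arrays 2 and 4. Leaving out 1 array at a time gave 14, 6, 71 and 6 calls for agria arrays 1 to 4 and 4, 24, 4 and 95 for organ pipe arrays 1 to 4 in the fit of all arrays. In the San Quintin fit the same omissions left 998 to 3092 calls, with 998, 1053 and 1155 without agria arrays 2 and 4 and organ pipe array 3. In the fit of all arrays, FBtr0168724 was the 1 call left without agria arrays 2 and 4 (1.13, limma adjusted p = 0.0126) and without organ pipe arrays 1 and 3 (1.20, adjusted p = 0.0027). In the San Quintin fit it was not called in either case (adjusted p = 0.14 and 0.0783). These pairs were chosen after the arrays had been seen. Agria arrays 2 and 4 and organ pipe arrays 1 and 3 lay farthest from the other cactus on component 1. Leaving them out shrinks the differences and the number of arrays, so lower counts were largely built in. The falls therefore do not tell whether those arrays are at fault.

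**Figure D4:**
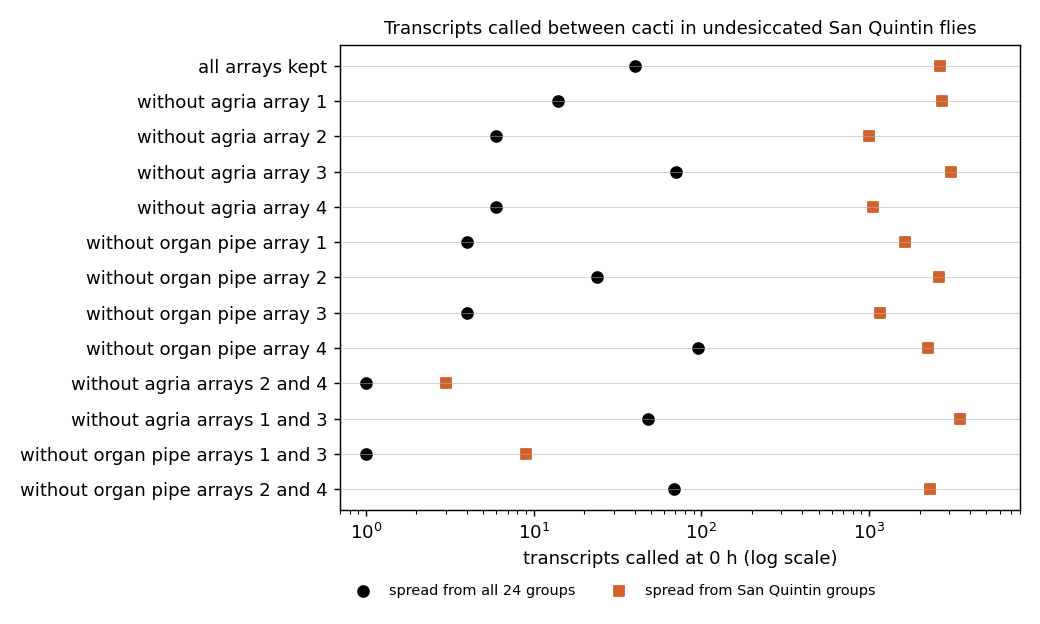
Number of transcripts called between cacti at 0 h (log scale) with all arrays and with the named arrays left out; black circles take the spread from all 24 groups and orange squares from the San Quintin groups. The count falls to 1 and 3 without agria arrays 2 and 4 and to 1 and 9 without organ pipe arrays 1 and 3, the arrays farthest from the other cactus. It is 48 and 3465 without agria arrays 1 and 3 and 69 and 2298 without organ pipe arrays 2 and 4.

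The same cactus comparison at later times shared no array with the one at 0 h. At 9 h limma called 0 transcripts (0%), with 187 at an unadjusted p under 0.05 and 34 at least 1.5-fold different (0.234%). At 18 h it called 2, both lower on organ pipe (0.0138%), with 1092 at an unadjusted p under 0.05 and 110 at least 1.5-fold different (0.757%). Averaged over the 3 times, 0 were called and 550 had an unadjusted p under 0.05. The root mean square difference over all transcripts was 0.278 at 0 h, 0.146 at 9 h and 0.181 at 18 h. These values were largest at 0 h. With the axis score as a covariate the order of 0 h and 18 h was no longer so, with 20 called at 0 h, 0 at 9 h and 21 at 18 h, and 1042, 189 and 1914 at an unadjusted p under 0.05.

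The direction at 9 h was mostly opposite to that at 0 h. Across the 14528 transcripts the 2 differences correlated at r = -0.597, and 28.4% had the same direction. With the axis score as a covariate the correlation was -0.0549. At 9 h the organ pipe arrays scored -8.12, -14.3, -15.1 and -5.36 on the axis and the agria arrays -5.24, 5.24 and 3.83, an order opposite to that at 0 h. Between 0 h and 18 h the correlation was -0.0909, with 43.2% in the same direction. These correlations describe transcripts of the same arrays, which are not independent replicates.

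At 9 h, 33 of the 40 called transcripts were lower on organ pipe and 7 higher, with differences from -0.73 to 0.11 and a median of -0.11. Among all transcripts 49.6% were higher at 9 h, and only 28.4% had the direction of 0 h. A turned direction was thus not particular to the 40. At 18 h 14 were higher and 26 lower, with a median of -0.05. None of the 40 was called at either time. In the San Quintin fit, 815 of the 1015 called higher had a difference below 0 at 9 h (median -0.10), and 1543 of the 1637 called lower had one above 0 (median 0.17). These counts are of turned directions, and over all transcripts only 28.4% kept the direction of 0 h, so turning was common throughout. At 18 h 331 of the 1015 and 843 of the 1637 were above 0, against 48.4% of all transcripts. The San Quintin fit called 0 transcripts at 9 h (978 at an unadjusted p under 0.05) and 0 at 18 h (2037 at an unadjusted p under 0.05).

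**Figure D5:**
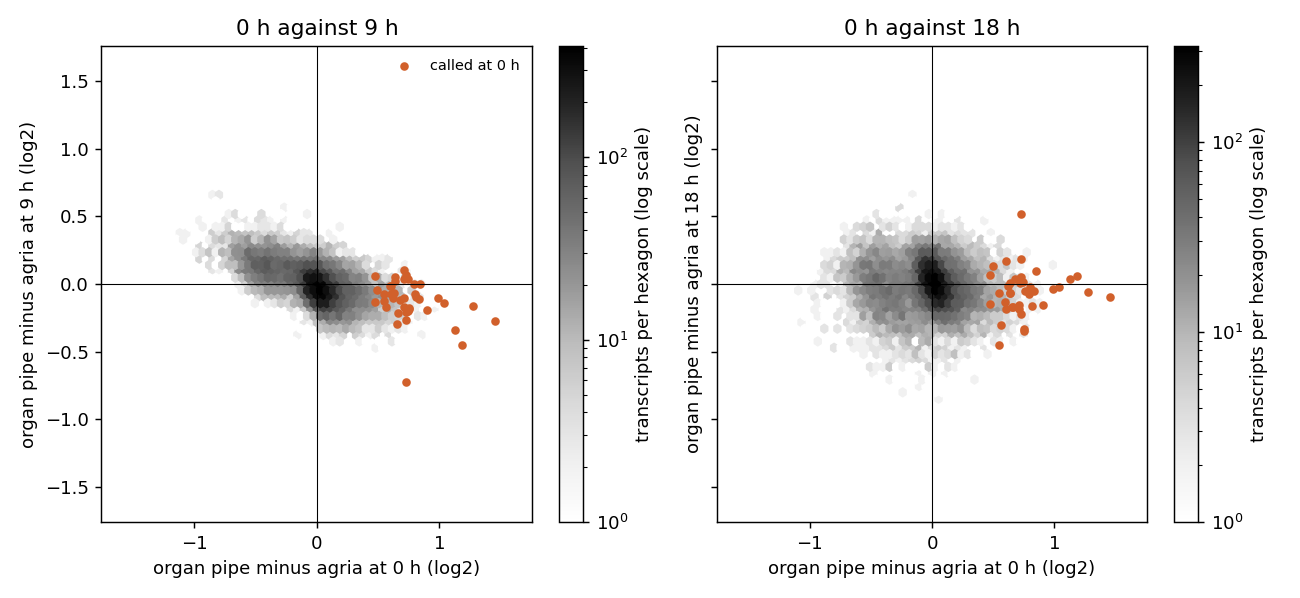
Organ pipe minus agria at 9 h (left) and at 18 h (right) against the same difference at 0 h (all log2) over 14528 transcripts, shaded by the number of transcripts per hexagon on a log scale; orange points are the 40 called at 0 h. The cloud slopes downward at 9 h (r = -0.597) and has little slope at 18 h (r = -0.0909), and 33 of the 40 lie below 0 at 9 h.

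The change of the cactus difference between times was tested itself, as an interaction. Between 0 h and 9 h it was called in 3 transcripts (0.0206%), all with a lower difference at 9 h, and 2285 had an unadjusted p under 0.05. Between 0 h and 18 h it was called in 5 (0.0344%), all lower, with 2005 at an unadjusted p under 0.05. In the San Quintin fit these interactions were called in 2022 transcripts (13.9%) and 1087 (7.48%). Toward 9 h 1223 had a higher difference (8.42%) and 799 a lower one (5.5%), and toward 18 h 514 (3.54%) and 573 (3.94%). FBtr0168724 was called in both by the fit of all arrays, with interactions of -1.44 ± 0.251 (adjusted p = 0.00143) and -1.33 ± 0.251 (adjusted p = 0.0114). Of the 40 transcripts called at 0 h, 3 were called in the interaction to 9 h and 4 in that to 18 h. Both interactions contain the 0 h difference that chose the 40, so these calls are partly built in.

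FBtr0163153 had the largest change of the cactus difference to 9 h among the 3 called transcripts. At 0 h its levels were 7.56, 7.66, 8.18 and 7.72 on agria and 9.15, 8.58, 7.98 and 8.31 on organ pipe. Organ pipe array 3 fell within the agria range, and the difference was 0.73 ± 0.139 (limma adjusted p = 0.00454). At 9 h its levels were 8.23, 8.63 and 8.21 on agria and 7.59, 7.67, 7.61 and 7.66 on organ pipe, so the order was turned with no overlap. The 9 h difference of -0.73 did not pass the test by itself (limma adjusted p = 0.108), and the interaction did, at -1.45 ± 0.205 (adjusted p = 9.75e-06). At 18 h the organ pipe mean was 8.38 ± 0.40 (SD, n = 3) and the agria mean 7.87 ± 0.0622 (SD, n = 4), with no call.

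FBtr0171629 differed between cacti at 18 h. Its levels there were 9.38, 8.94, 9.06 and 9.60 on agria and 7.57, 8.23 and 7.91 on organ pipe, without overlap. The difference was -1.35 ± 0.242 (limma adjusted p = 0.00571), against 0.23 ± 0.224 at 0 h and -0.0049 ± 0.242 at 9 h. The interaction of 0 h and 18 h was -1.58 ± 0.330 (limma adjusted p = 0.0319). FBtr0171251, the other transcript called at 18 h, had a difference of -0.96 ± 0.189 (limma adjusted p = 0.0178). In the San Quintin fit neither was called at 18 h, where the smallest adjusted p was 0.0681.

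Undesiccated flies of the other populations gave the same comparison on other arrays. Transcripts called between cacti numbered 9 in Punta Prieta (0.0619%, 2 higher and 7 lower on organ pipe) and 14 in Organ Pipe National Monument (0.0964%, 9 higher and 5 lower). In Punta Onah limma called 0 (0%), with 409 at an unadjusted p under 0.05. Differences of at least 1.5-fold numbered 108 (0.743%), 67 (0.461%) and 60 (0.413%) in the same order, against 750 in San Quintin. The root mean square difference was 0.180, 0.168 and 0.147, against 0.278 in San Quintin. San Quintin did not keep the most calls under every setting. With the axis score as a covariate 13, 23 and 0 were called, against 20 in San Quintin. At an unadjusted p under 0.05 that fit marked 721, 1138 and 802, against 1042. Without the dimmest transcripts the calls were 14, 15 and 0, against 6 in San Quintin. There 603, 576 and 269 had an unadjusted p under 0.05, against 1501. Across transcripts the San Quintin difference correlated at 0.468 with that of Punta Prieta, at -0.14 with that of Organ Pipe National Monument and at 0.322 with that of Punta Onah. With the axis score as a covariate these values were -0.078, -0.0892 and 0.195.

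The 40 called transcripts had no common direction in the other populations. On organ pipe 24 of the 40 were higher in Punta Prieta (median difference 0.06), 8 in Organ Pipe National Monument (median -0.12) and 35 in Punta Onah (median 0.21). Among all transcripts 52.5%, 43.2% and 62.1% were higher. None of the 40 was called in any of these 3 populations. FBtr0166098 had mean levels on agria and organ pipe of 9.53 and 9.31 in Punta Prieta, 8.89 and 8.34 in Organ Pipe National Monument and 8.26 and 8.99 in Punta Onah. FBtr0168724 had 7.61 and 7.74, 7.70 and 7.51, and 7.95 and 8.17 in the same order, all below its San Quintin organ pipe mean at 0 h.

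Whether San Quintin differed from the mean of the other 3 populations was tested as an interaction, which was called in 5 transcripts (0.0344%), all with a higher difference in San Quintin, and 1287 had an unadjusted p under 0.05. All 5 were among the 40, but the interaction contains the same San Quintin difference at 0 h that chose the 40. This overlap is therefore partly built in. FBtr0168724 had an interaction of 1.22 ± 0.198 (limma adjusted p = 0.000464). FBtr0170936 had levels of 10.19, 9.86, 10.22 and 10.08 on agria and 10.72, 10.85, 10.96 and 10.68 on organ pipe in San Quintin, without overlap. Its difference was 0.72 ± 0.173 (limma adjusted p = 0.0419), and its interaction with the other populations was 0.93 ± 0.201 (adjusted p = 0.0424). In Punta Prieta its means were 11.04 ± 0.185 on agria and 10.53 ± 0.543 on organ pipe (SD, n = 4 each), the opposite order.

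Against Punta Prieta alone the interaction was called in 8 transcripts (0.0551%), all with a higher difference in San Quintin, and 673 had an unadjusted p under 0.05. FBtr0163932 had San Quintin levels of 8.90, 8.78, 9.30 and 8.72 on agria and 10.46, 10.19, 10.38 and 9.66 on organ pipe, without overlap. In Punta Prieta its levels ran from 11.34 to 11.77 on agria and from 8.67 to 11.58 on organ pipe. The Punta Prieta organ pipe arrays therefore spanned far more than any of the San Quintin groups at 0 h. The interaction was 2.42 ± 0.505 (limma adjusted p = 0.0233), while neither population's own difference was called (1.25 ± 0.357, adjusted p = 0.101, and -1.17 ± 0.357, adjusted p = 0.428). FBtr0161297 had San Quintin levels of 10.73, 10.59, 11.06 and 10.92 on agria and 11.76, 11.64, 11.86 and 10.97 on organ pipe, with organ pipe array 4 inside the agria range. Its interaction was 1.80 ± 0.40 (limma adjusted p = 0.0465), with Punta Prieta organ pipe levels from 10.37 to 12.88. Without Punta Prieta organ pipe arrays 3 and 4 the interaction was called in 2 transcripts.

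The change over hours of desiccation was followed in the other 3 populations, whose arrays are not part of the cactus comparison. The labels name no flies kept undesiccated for 9 or 18 h, so desiccation cannot be told apart from other changes over those hours. In these populations 74.7% of transcripts changed by 18 h, 36.9% higher and 37.8% lower by limma. Of the 40 transcripts, 4 rose and 19 fell. FBtr0166098 fell by 1.21 ± 0.120 (limma adjusted p = 3.25e-14), and FBtr0168724 changed by -0.16 ± 0.0693 (adjusted p = 0.0294). FBtr0172091 and FBtr0164953, the lower transcripts on organ pipe, rose by 0.80 ± 0.139 and 0.88 ± 0.158 (adjusted p = 7e-07 and 1.46e-06). Across all transcripts the San Quintin cactus difference at 0 h correlated at -0.422 with the change at 9 h in the other populations and at -0.505 with that at 18 h, and 34.8% and 32.1% had the same direction. The shared axis ran through both sets of arrays, and its part in these correlations was not tested.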

How the data were processed

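RNA was measured on 1-colour Cy3 NimbleGen arrays, per the labels. The authors deposited 1 log2 value per transcript and array, made with RMA per the submitters' processing notes, with no version stated. RMA corrects background, normalizes probes between arrays and summarises a transcript's probes, and it makes levels relative within the set of arrays. Values ran from 4.52 to 15.6, array medians from 10.17 to 10.40 and array SDs from 1.802 to 2.059. The files used here give no detection calls, and the number of arrays limits the precision.

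From these values, 24 group means were fitted over 95 arrays with limma 3.58.1 in R 4.3.3, with no filter, block or covariate, and Benjamini-Hochberg adjustment over 14528 transcripts. The fit was tried on simulated data, with recovery required only under noise independent between transcripts, which lacks the shared axis. Exact permutation tests compared array measures. The shared axis came from a singular value decomposition of deviations from group means, and its sign was set to rise with the array's SD. Covariate fits used its score. Named transcripts were the 2 largest called differences in each direction, filled at 0 h by the largest differences without overlap between cacti. None of the 14528 identifiers occurs in the reference table of 15130 genes, so planned gene lists gave no counts. The arrays compared, the lists and the rule were chosen with earlier results of these data known. Alternatives were other normalizations, weights, filters, covariates, blocks and sets of arrays, and single arrays left out.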

Additional observations from a re-analysis of the deposited data

Results flagged for a closer look

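In FBtr0166098, organ pipe array 4 at 0 h had a level of 9.765, below the nearest of the other 3 organ pipe arrays at 10.52. The gap took 0.881 of the group's range. In all, 14 sets of 4 values were examined for such an array, all from the same 8 arrays. By chance about 1 in 20 such sets is marked, but these sets are not independent of each other.

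The cactus difference at 0 h in San Quintin differed from others by interaction tests in limma. It differed from that at 9 h in 3 transcripts, from that at 18 h in 5, from the mean of the other 3 populations in 5, and from Punta Prieta in 8.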

How the results depend on the processing

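Counts of called transcripts depended strongly on the array set and weights. The 4 named transcripts of the 0 h comparison kept their direction in all 42 or 43 alternatives each. In these 4 the cacti did not overlap at 0 h, so leaving out arrays or changing the spread could not turn the direction. FBtr0166098 lost its call in 13 and FBtr0168724 in 3, and FBtr0172091 and FBtr0164953 gained one in 14 each. The causes were not tested. The 0 h count of 40 became 3175 with array weights (1220 higher, 1955 lower), 6 without the dimmest transcripts, 20 with the axis covariate (also with the axis of outside arrays), 5 in the 31 arrays at 0 h, 3004 in the 8 arrays alone and 2652 in San Quintin arrays. Without agria arrays 2 and 4 it was 1, or 3 in San Quintin arrays, where omitting agria 1 and 3 gave 3465 and the axis covariate 0. Without organ pipe arrays 1 and 3 it was 1, or 9 in San Quintin arrays, and without 2 and 4 it was 69 or 2298. Leaving out replicates or single arrays gave 2 to 95. In San Quintin arrays it gave 2733, 998, 3092 and 1053 without agria arrays 1 to 4, and 1648, 2617, 1155 and 2247 without organ pipe arrays 1 to 4. Centring arrays on medians gave 36 calls and 40.6% of transcripts higher, against 52.5%. With array weights the counts were 1 at 9 h, 1877 at 18 h, 193 for the mean of times, 3276 and 2351 for the changes to 9 h and 18 h, 203 against other populations, 58 against Punta Prieta, and 50, 171 and 22 in Punta Prieta, Organ Pipe National Monument and Punta Onah. Centring gave 19 against Punta Prieta. Quantile normalization gave 4 at 18 h and 3 for the change to it. Without the dimmest transcripts, 18 h, both changes and the contrast with other populations had 0 calls, and Punta Prieta and the contrast with it 14 each. The axis covariate gave 21 at 18 h, 10 for the change to it, 2 against other populations, 26 against Punta Prieta and 23 in Organ Pipe National Monument. The submitters' note names 4 arrays made from another order of the array design, and for 1 of them its position number and sample disagree (the sample was used). Omitting these arrays gave 3 against Punta Prieta and 0 in it. Without Punta Prieta organ pipe arrays 3 and 4 these were 2 and 0. San Quintin arrays alone gave 0 at 18 h and 2022 and 1087 for the changes. Fits of a single population gave 0 in Punta Prieta and 3 in Organ Pipe National Monument.

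Without each replicate in turn, counts were 0 to 0 at 9 h and for the mean of times, 0 to 7 at 18 h, 1 to 4 and 0 to 7 for the changes, 0 to 5 against other populations, 1 to 41 against Punta Prieta, and 0 to 179, 3 to 43 and 0 to 3 in Punta Prieta, Organ Pipe National Monument and Punta Onah. Array median, SD and axis score differed by 0.0305 to 0.0531, 0.0552 to 0.0711 and 24.6 to 32.3, with exact permutation p up to 0.0857, 0.0286 and 0.0571.

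Deviations of same-numbered arrays correlated at -0.00543 for number 1 and at 0.182 to 0.495 for numbers 2 to 4 at 0 h, and at -0.217 to -0.108 at 9 h. Not every pair exceeded 0.1, and the labels name no shared source, so the numbers were not taken as pairs. With the replicate number as a block the 0 h count was 34, or 3929 in the 8 arrays alone, the change to 18 h had 3 and the contrast with Punta Prieta 13. With block and axis covariate the counts were 18 at 0 h, 31 at 18 h, 11 for the change to it, 2 against other populations, 23 against Punta Prieta and 24 in Organ Pipe National Monument.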
